A study of Mus musculus with 13 samples.

Results

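Junctions of a fixed DNA break were compared between the 2 groups of cells in this series that were not undergoing class switching. These were activated splenic T cells of genotype IgH2-28xI, stimulated with ConcanavalinA/IL-2, and SV40-transformed tail fibroblasts of genotype c-myc25xI;RosaI-SceI-GR, which received no activation. All 7 of their libraries were taken out of 13 in the series, which are replicates 19, 21 and 23 of the T cells and replicates 1 to 4 of the fibroblasts. Every deposited line of these libraries was used, giving 4347 junctions in T cells and 2931 in fibroblasts, or 7278 of the 16455 in the series. All cells were from mice and carried I-SceI recognition sites, on chromosome 12 for IgH and on chromosome 15 for c-myc, called the cassette chromosome below. The locus of the break, the cell type, its activation, the nuclease supply and the genotype all changed together, so the part of each in any difference below cannot be told apart. The nuclease of the fibroblasts is named in their genotype (I-SceI fused to a hormone-binding domain, GR, at Rosa), while the labels of the T cells name none. The labels do not say which mice or cultures gave the libraries, nor whether the fibroblast libraries came from 1 transformed line, so p-values measure only the spread between these libraries.

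I-SceI is a rare-cutting yeast homing endonuclease that makes a double-strand break with short overhangs at its recognition site. High-throughput genome-wide translocation sequencing (HTGTS) amplifies from a primer beside that break, the bait, and reads what was joined to it, the prey. A break can be rejoined after its ends have been trimmed (resection), joined to another break on the same chromosome, or joined to another chromosome, which is a translocation. Classical non-homologous end joining seals ends with little or no shared sequence, whereas alternative end joining often uses a few matching bases, called microhomology. In B cells, joining of paired breaks at long range along IgH is the last step of class switching, which is started by the deaminase AID. T cells and fibroblasts do not normally switch.

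Several facts about the libraries touch every comparison. The T-cell libraries held 1253, 2707 and 387 junctions for replicates 19, 21 and 23, and the fibroblast libraries held 980, 769, 620 and 562 for replicates 1 to 4. The read names showed 1 sequencing run for all fibroblast libraries and 2 runs for the T cells, none of them shared, so run and group cannot be told apart. Median read length was 184 to 257 bases in the T cells and 336 to 345 in the fibroblasts. Libraries of a group shared some junctions. Among 653 fibroblast positions on other chromosomes, 6 were found with the same strand in 2 or more of the 4 libraries, against 0 of 96 in T cells. On the cassette chromosome outside both windows it was the other way, with 3 of 166 T-cell positions and 0 of 180 fibroblast positions shared. Lines repeating a position and strand within their library made up 71.4% ± 1.71 (SD, n = 4) of the fibroblast partner window and 36.5% ± 11.9 (SD, n = 3) of that of the T cells. On other chromosomes there were 0 such repeats in all 7 libraries, and how lines were kept before deposit was not tested.

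The sequences show what the fibroblast libraries shared. A junction in the gene labelled Eefsec, which encodes the elongation factor that delivers selenocysteine, was read in all 4 fibroblast libraries with the same strand and identical bases in all 4 reads, 20 before the joint and 25 after it. The reads had 4 different far ends on the prey and 1 bait length, and how the junction came to be in all libraries was not tested. A junction in Lzic was shared by 3 libraries in the same way, with 3 different far ends. In both sequences, which run from bait side to prey, capitals mark the prey as aligned (mm9 chr6:88209573-88209597 and chr4:148870060-148870084, + strand). In the Eefsec sequence the end of the lower-case part repeats the first capitals, and whether those lower-case bases are bait was not tested.
Eefsec junction: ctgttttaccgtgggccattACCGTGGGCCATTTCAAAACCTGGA
Lzic junction: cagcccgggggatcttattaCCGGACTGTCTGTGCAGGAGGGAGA
The remaining 4 shared positions lay in genes labelled Efr3b, Maml3, Ric8b and Wfdc1, each in 2 libraries. Leaving out junctions that recurred between libraries changed none of the 3 measures it was run on, the other-chromosome, same-chromosome and gene-label shares, in direction or in overlap of the groups.

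The breaks were located from the junctions themselves, because no mm9 genome was used here. In each group the bait and the partner are the 2 highest peaks on the cassette chromosome, and a window holds the 10 kb on either side of a peak. The T-cell bait peak was at position 114577037 of chromosome 12 and the partner peak at 114664483, 87.4 kb away. Those of the fibroblasts were at 61818879 and 61923262 of chromosome 15, 104 kb apart, in lines that the deposited tables label Myc and Pvt1. Pvt1 is the long non-coding RNA gene beside Myc. The T-cell partner was a cassette that the deposited prey references contain, with 2 recognition sites in opposite orientation whose middles were 22 bp apart (mm9-based coordinates chr12:114664485-114664527, + strand, sites in capitals). The word below it is the site as found in fibroblast bait reads.
T-cell partner cassette: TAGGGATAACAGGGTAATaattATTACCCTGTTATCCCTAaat
I-SceI site: TAGGGATAACAGGGTAAT
No such site was found in the prey references of the fibroblasts, and their genotype label names no partner cassette. The sequence at their partner peak is shown with the 6 bases on either side of the peak in capitals (chr15:61923233-61923292, + strand).
Fibroblast partner: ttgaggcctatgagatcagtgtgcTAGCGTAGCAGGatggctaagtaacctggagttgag

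At 2 places the T cells had no junction at all over a long stretch next to a peak. The stretches ran for 8206 bp from 114568823 to 114577029 at the bait and for 3458 bp from 114661018 to 114664476 at the partner. Sequence flanking them is shown with the 6 bases nearest the stretch in capitals (chr12:114577030-114577059 and chr12:114660989-114661018, + strand). Distances from the T-cell bait end were therefore counted from the edge of the stretch on each strand. At the T-cell partner they were counted from the middles of the 2 recognition sites, with the absent stretch left out. The fibroblasts had no such stretch, and their distances were counted from the peak.
T-cell bait, right side: TTCCCTgcaggcttgaaggcattcctggga
T-cell partner, left side: tcttcttgcctcctgtcagacaggAGATCC

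Long-range joining to the partner took 34% to 39% of the junctions in every library of both groups when lines were counted as deposited. The partner window took 37.9%, 35.4% and 38.2% of junctions in T-cell replicates 19, 21 and 23, and 39.1%, 34.1%, 39.0% and 37.7% in fibroblast replicates 1 to 4. The groups overlapped, with 37.2% ± 1.58 (SD, n = 3) against 37.5% ± 2.36 (SD, n = 4; exact permutation p = 0.971, adjusted p = 0.971). Of the 12 measures tested in this way, 6 did not overlap between the groups (50%). With 3 against 4 libraries there are 35 splits, so the smallest two-sided p is 0.0571 and the smallest adjusted value reached was 0.114. No measure could therefore pass 0.05, and groups that do not overlap are named as such.

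The nearness of the partner shares held for lines as deposited and not under every way of counting. With 1 junction counted per position and strand, the T cells had 34.6% and the fibroblasts 20.7%, a difference of 13.9 percentage points without overlap. Where the bait window was left out of the denominator, the partner window held 85.1% of the rest in T cells and 56.4% in fibroblasts. The IgH B cells of the series had 40.2% ± 3.12 (SD, n = 3) of lines in the partner window and the c-myc B cells 23.3% ± 1.08 (SD, n = 3). The partner peak of the c-myc B cells was at 61914759, 95.4 kb from their bait peak, and is not that of the fibroblasts at 61923262.

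Joining within the bait window was more frequent in T cells, and joining to other chromosomes was far more frequent in fibroblasts. The bait window held 56.4%, 58.6% and 54.0% of T-cell junctions and 31.9%, 35.5%, 34.0% and 33.1% of those of the fibroblasts. Every T-cell library was above every fibroblast library (56.3% ± 2.27, SD, n = 3, against 33.6% ± 1.51, SD, n = 4; exact permutation p = 0.0571, adjusted p = 0.114). Other chromosomes took 2.08%, 2.29% and 2.07% in T cells and 22.9%, 23.1%, 20.8% and 23.3% in fibroblasts. The fibroblast mean of 22.5% ± 1.16 (SD, n = 4) was 10.5 times the T-cell mean of 2.14% ± 0.127 (SD, n = 3), again without overlap (exact permutation p = 0.0571, adjusted p = 0.114). These 2 contrasts did not overlap under any of the alternatives run. B cells with the same bait loci lay between them, at 7.44% ± 0.710 (SD, n = 3) for IgH and 16.9% ± 5.11 (SD, n = 3) for c-myc.

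**Figure D1:**
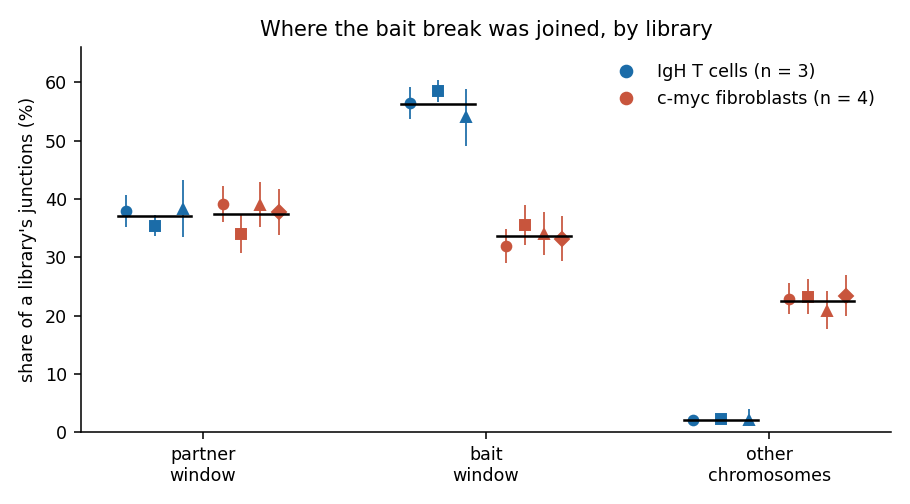
Share of each library's junctions (vertical axis, percent) in the partner window, the bait window and on other chromosomes, with 95% Wilson intervals for counting error as bars, libraries as points and group means as black lines. The groups overlap in the partner window, while T cells are above 54% in the bait window and below 2.3% on other chromosomes.

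At the partner break, T-cell junctions were spread more widely than those of the fibroblasts. With lines as deposited, 32.6% of T-cell and 79.1% of fibroblast junctions lay within 20 bp of the break end. The median distance from the break end was 55, 156 and 184.5 bp in T-cell replicates 19, 21 and 23 and 4, 3, 2.5 and 3 bp in fibroblast replicates 1 to 4. All T-cell medians were above all fibroblast medians. The end was the middle of a recognition site in T cells and the peak itself, the most frequent position, in fibroblasts. Junctions more than 200 bp from the partner peak made up 50.3%, 56.8% and 64.2% in T cells and 17.0%, 16.4%, 16.1% and 16.5% in fibroblasts. The means were 57.1% ± 6.94 (SD, n = 3) and 16.5% ± 0.355 (SD, n = 4), a ratio of 3.46 (exact permutation p = 0.0571, adjusted p = 0.114). Counted from the break end on each strand, so that the absent stretch adds nothing, the values were 44.7% and 11.5%, also without overlap. Beyond 1 kb the T cells still had 24.3% ± 2.21 (SD, n = 3) and the fibroblasts 5.26% ± 0.649 (SD, n = 4).

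Both ends of the partner break showed the wider spread in T cells. On the + strand end 37.9% ± 6.90 (SD, n = 3) of T-cell junctions and 11.3% ± 5.81 (SD, n = 4) of fibroblast junctions were beyond 200 bp. The − strand end had 53.5% ± 6.89 (SD, n = 3) and 11.6% ± 4.72 (SD, n = 4). Some prey were on the strand that pointed away from the break, which was so for 14.4% ± 1.25 (SD, n = 3) against 7.68% ± 0.738 (SD, n = 4) of junctions in fibroblasts. The IgH and c-myc B cells had 46.1% ± 8.92 (SD, n = 3) and 41.1% ± 18.3 (SD, n = 3) of junctions beyond 200 bp from their partner peaks. The c-myc B-cell value averages 62.2% in replicate 14 with 30.1% and 31.0% in replicates 36 and 37. Their partner peak is not that of the fibroblasts. With 1 junction per position and strand the contrast narrowed to 70.2% in T cells and 39.8% in fibroblasts and did not overlap.

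At the bait break both groups were spread over kilobases. Median distances from the bait end were 725, 726.5 and 878 bp in the T cells and 668, 568, 709.5 and 714 bp in the fibroblasts, so that the lowest T-cell library stood 11 bp above the highest fibroblast library. Junctions more than 1 kb from the bait peak made up 45.2% ± 7.77 (SD, n = 3) in T cells and 37.9% ± 3.10 (SD, n = 4) in fibroblasts, with overlap (exact permutation p = 0.171, adjusted p = 0.294). From the break end the shares were 40.6% and 37.02%. On the + strand end the median was 741 bp ± 92.6 (SD, n = 3) in T cells and 511 bp ± 69.1 (SD, n = 4) in fibroblasts, without overlap, and on the − strand end it was 965 bp ± 129 (SD, n = 3) and 1041 bp ± 113 (SD, n = 4), with overlap. Exactly at the end lay 6.42%, 10.04%, 13.7% and 10.9% of fibroblast junctions and 0.147%, 0.198% and 0% of T-cell junctions. The fibroblast end is the bait peak, chosen as the most frequent position there, so its share is raised by that choice. The T-cell end is the edge of the absent stretch, so these shares are not like for like. The edge used for the T-cell bait is the first position with a junction and not a mapped cut, since no recognition site was found in the references there.

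**Figure D2:**
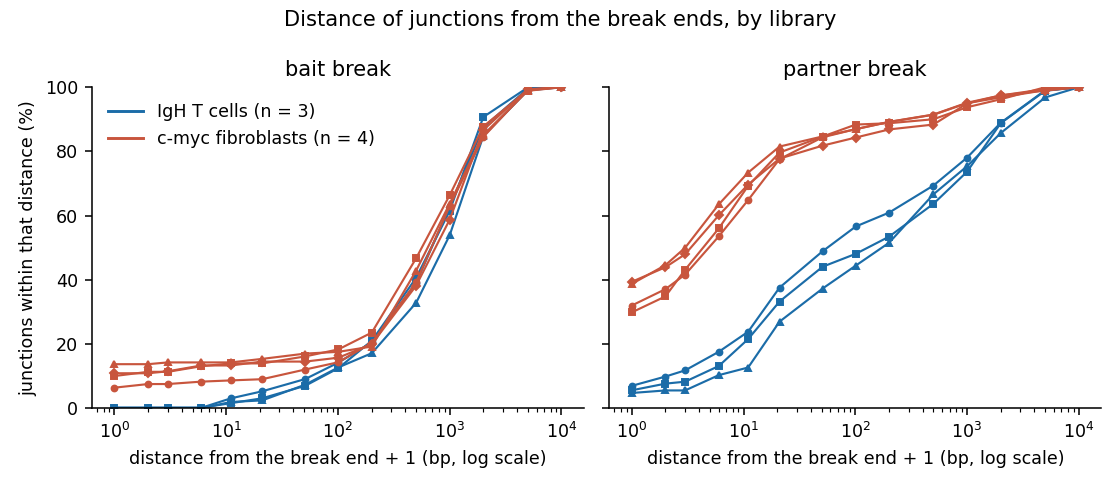
Cumulative share of junctions (vertical axis, percent) within a distance of the break end (horizontal axis, bp plus 1, log scale), with 1 line per library, at the bait break on the left and the partner break on the right. At the partner the fibroblast lines start high, with medians of 2.5 to 4 bp, while those of the T cells rise slowly, with medians of 55 to 184.5 bp. The fibroblast ends are the peaks themselves, the most frequent positions, which raises the start of their lines.

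The bait side of the same reads can be followed from the primer along a consensus of the reads to its first I-SceI site. On that consensus the site is 133 bases away at IgH and 108 at c-myc. A mean of 0.0779% of T-cell reads followed the IgH consensus to the site, while 1.60% of T-cell lines held a whole site. The 133 bases thus rest on few reads and are not a measured distance to the cut. In T cells 0.0816%, 0.152% and 0% of reads reached the site, against 73.6%, 72.8%, 76.0% and 76.0% in fibroblasts. The T-cell bait parts ended a median of 66, 66 and 67 bases short of it. Those of the fibroblasts ran a median of 13, 12, 13 and 13 bases past its start, which lies inside the 18-base site. Of the T-cell bait ends, 39.6% ± 2.29 (SD, n = 3) lay 81 to 110 bases before the site and 30.1% ± 1.57 (SD, n = 3) lay 41 to 60 bases before it. Between 1 and 20 bases before it were 2.23% ± 1.01 (SD, n = 3).

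The B cells of the series differed by locus in the same direction. IgH B cells reached the site in 0.218% ± 0.289 (SD, n = 3) of reads and c-myc B cells in 60.5% ± 16.5 (SD, n = 3). Their reads follow the same bait sequence as those of the T cells and the fibroblasts, respectively. Fibroblast bait parts often still held whole recognition sites, with at least 1 in 50.2%, 47.2%, 52.4% and 53.2% of lines and up to 11 in a single read. In T cells such lines were 14, 79 and 3, or 1.60% ± 1.15 (SD, n = 3). Fibroblast reads with 3 or more sites made up 27.6% ± 2.99 (SD, n = 4).

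Reads with whole sites were not spread evenly over the places that the fibroblast bait joined. They made up 62.4% ± 0.607 (SD, n = 4) of junctions in the partner window, 47.8% ± 5.36 (SD, n = 4) on other chromosomes and 40.6% ± 3.89 (SD, n = 4) in the bait window. In T cells 0 of 96 junctions on other chromosomes had one, which allows a share of up to 3.13%.

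**Figure D3:**
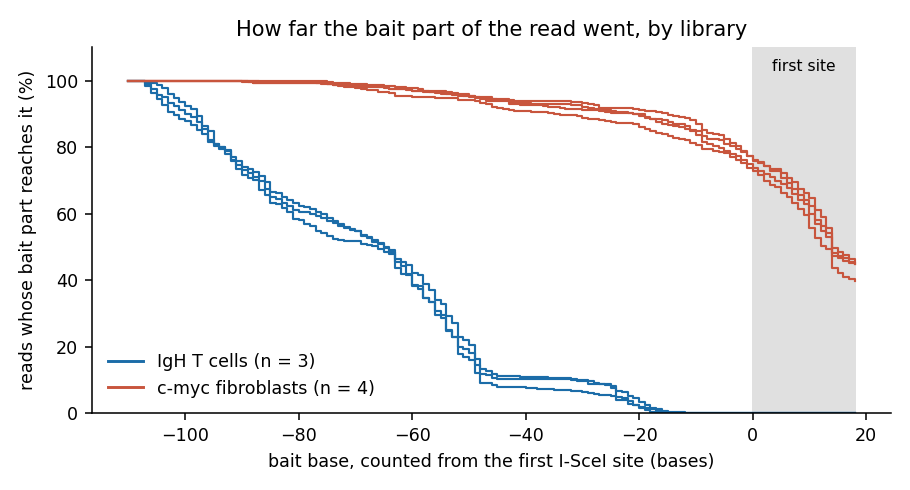
Share of reads (vertical axis, percent) whose bait part reaches each base (horizontal axis, bases from the start of the first I-SceI site, with the 18-base site shaded), with 1 line per library. The T-cell lines are at or near 0 before the site, whereas 72.8% to 76.0% of fibroblast reads enter it. Bases are counted along a consensus of the reads, whose part next to the site rests on few reads at IgH.

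Orientation was near even at the partner and uneven at the bait. A prey on the + strand in the partner window made up 57.7%, 53.3% and 52.0% in T cells and 55.9%, 50.4%, 52.1% and 54.7% in fibroblasts. The means of 54.3% ± 2.97 (SD, n = 3) and 53.3% ± 2.49 (SD, n = 4) overlapped (exact permutation p = 0.629, adjusted p = 0.754). IgH and c-myc B cells had 64.2% ± 2.52 (SD, n = 3) and 73.7% ± 2.18 (SD, n = 3) on the + strand in their own partner windows. For c-myc B cells that window is around another peak than in fibroblasts. In the bait window the + strand had 88.7%, 89.5% and 80.9% in T cells and 70.6%, 69.6%, 68.2% and 70.4% in fibroblasts, without overlap. The window around the T-cell bait peak holds little of the left flank because of the absent stretch, and the part of this in the difference was not tested.

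The stretch between both breaks took few junctions in either group. It held 1.02% ± 0.499 (SD, n = 3) in T cells, from 7, 26 and 6 lines, and 1.20% ± 0.549 (SD, n = 4) in fibroblasts, from 6, 9, 12 and 6 lines. The groups overlapped (exact permutation p = 0.629, adjusted p = 0.754). With windows of 5 kb, which leave more of the flanks of the breaks in this stretch, the T cells had 4.37% and the fibroblasts 1.72%, without overlap.

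Outside both windows, most T-cell junctions were on the cassette chromosome and most of those of the fibroblasts were on other chromosomes. The T cells had 266 such junctions and the fibroblasts 849. On the cassette chromosome were 63.4%, 62.4% and 73.3% of them in T cells and 21.1%, 23.9%, 22.8% and 20.1% in fibroblasts. The means were 66.4% ± 6.04 (SD, n = 3) and 22.0% ± 1.69 (SD, n = 4), which is 3.02 times higher in T cells (exact permutation p = 0.0571, adjusted p = 0.114).

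Density on the cassette chromosome fell with distance in both groups, by larger pooled folds in T cells as counted from the bait peak. Only the centromeric side was compared at full length, up to 50 Mb from the bait peak, since chromosome 12 ends soon after IgH. Pooled over libraries, junctions per Mb dropped 64.2-fold from the stretch at 10 to 100 kb to that at 100 kb to 1 Mb in T cells and 11.6-fold in fibroblasts. The next step, to 1 to 10 Mb, was 10.9-fold in T cells and 6.55-fold in fibroblasts. From there to 10 to 50 Mb the density dropped 6.98-fold and 3.68-fold. These folds rest on 7 to 77 junctions a bin in T cells and 19 to 35 in fibroblasts, and carry no replicate error. The T-cell bin at 10 to 100 kb holds part of the left flank of the bait break, past the absent stretch. The first T-cell fold therefore depends on where the window was placed. It was not recomputed without that flank, so how much of its excess over the fibroblast fold would remain is not known.

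By library, the first bin was higher in T cells as counted from the bait peak, and the share beyond 1 Mb was lower. The T-cell first bin holds part of the left flank of the bait break, past the absent stretch of 8206 bp. Windows counted from each edge of that stretch held 726, 1620 and 215 T-cell junctions, against 707, 1585 and 209 around the peak. The lines so gained all lay in the first bin, which held 26, 45 and 6 T-cell junctions in replicates 19, 21 and 23. The first bin was not recounted without that flank, so its higher T-cell share cannot be told apart from spread at the bait break. From 10 to 100 kb on the centromeric side lay 2.08%, 1.66% and 1.55% of T-cell junctions and 0.918%, 1.17%, 0.484% and 0.178% of fibroblast junctions. Beyond 1 Mb were 0.0798%, 0.443% and 1.29% in T cells and 2.45%, 2.47%, 1.61% and 1.96% in fibroblasts. As counted from the bait peak, neither of these bins overlapped between groups, while the bin from 100 kb to 1 Mb did. Within 1 Mb of the bait peak lay 78.7% ± 19.4 (SD, n = 3) of T-cell and 38.9% ± 6.49 (SD, n = 4) of fibroblast junctions on this side outside the windows (exact permutation p = 0.0571, adjusted p = 0.114). The libraries gave 96.9%, 81.0% and 58.3% against 33.3%, 44.1%, 33.3% and 45.0%, the last T-cell value from 12 junctions only.

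This nearness did not hold under every setting. When the window was counted outward from each edge of the absent stretch, so that the left flank of the T-cell bait was left out as well, 55.4% of the remaining T-cell junctions lay within 1 Mb. The groups then overlapped (exact permutation p = 0.571). With windows of 20 kb the values were 54.1% and 29.95%, again with overlap (exact permutation p = 0.343). On the telomeric side the bin from 10 to 100 kb held 1.04% ± 0.497 (SD, n = 3) in T cells and 1.20% ± 0.549 (SD, n = 4) in fibroblasts, with overlap. Outside the windows this bin is nearly the stretch between both breaks given above, so its junctions are largely the same. From 1 to 6 Mb it held 0.0123% ± 0.0213 (SD, n = 3), from 1 junction, and 0.349% ± 0.1696 (SD, n = 4), from 10, without overlap. Over both sides up to 6 Mb, 93.4% of T-cell and 72.6% of fibroblast junctions lay within 1 Mb, also without overlap. That count used windows around the peaks, so the left flank of the T-cell bait was still in it.

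**Figure D4:**
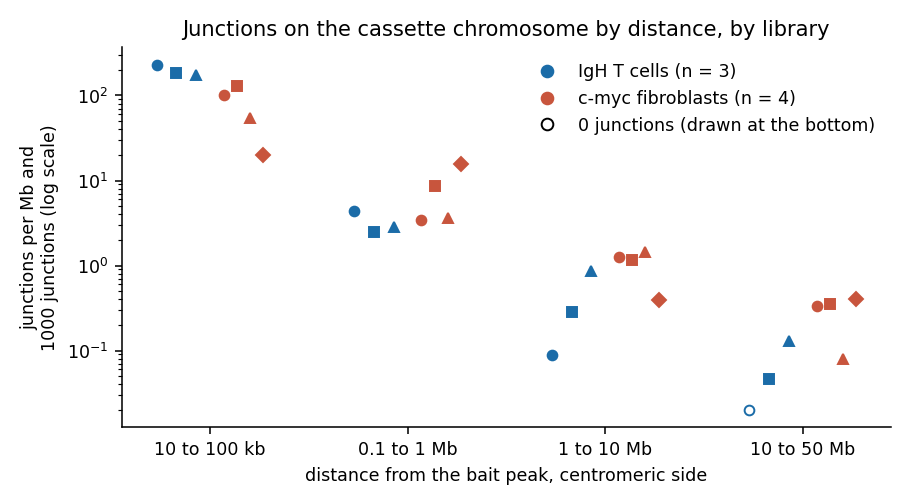
Junctions on the centromeric side of the bait peak per Mb and 1000 junctions of a library (vertical axis, log scale) in 4 distance bins, with 1 point per library and a hollow point for 0 junctions. T cells are higher at 10 to 100 kb, a bin that holds part of the left flank of their bait break. The groups overlap at 0.1 to 1 Mb, at 1 to 10 Mb and at 10 to 50 Mb taken singly.

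Far along the cassette chromosome the density can be set against that of other chromosomes. The density at 10 to 50 Mb was 3.67, 3.90, 0.9795 and 4.34 times that of other chromosomes in fibroblast replicates 1 to 4. In T-cell replicates 19, 21 and 23 it was 0, 5.06 and 15.7 times, from 0, 5 and 2 cis junctions. The groups overlapped (exact permutation p = 0.514), and the T-cell counts are too few to place the ratio.

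On other chromosomes the 96 T-cell and 662 fibroblast junctions each reached 19 chromosomes. Chromosome 12 had 27 fibroblast junctions and chromosome 15 had 3 of the T cells, and Y had none in either group. For the 18 chromosomes other than 12, 15 and Y, the share of a library's junctions was tested with limma on log2(percent + 1). At an adjusted p under 0.05 it called 1 chromosome of 18 (5.56%), with 2 at an unadjusted p under 0.05. Chromosome 13 took 0.565% in T cells, from 1 junction, and 6.395% in fibroblasts, from 39 (log2 difference −2.37, SE 0.575, limma adjusted p = 0.0292). The call was lost without any single fibroblast library, where the lowest limma adjusted p was 0.0561 to 0.1404. In simulated libraries of these sizes with no difference, the same step made some false calls.

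Chromosome 6 was the highest in T cells at 13.8% against 6.24% in fibroblasts (log2 difference 1.04, SE 0.495, limma adjusted p = 0.290), nearly level with chromosome 2 at 13.7% in T cells. All 3 T-cell libraries were above all 4 of the fibroblasts, in replicate 23 from 1 of 8 junctions. Chromosomes 9 and 13 did not overlap either, with the T cells lower. Of its 13 T-cell junctions, 6 fell within 33 bp of each other in 2 libraries, all on the + strand, and 0 of the fibroblasts were there. The sequence of this place is shown because it was the densest T-cell cluster off chromosome 12 (chr6:122256220-122256279, + strand, chosen after its values were seen).
T-cell chromosome 6 cluster: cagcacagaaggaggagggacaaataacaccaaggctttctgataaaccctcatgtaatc

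**Figure D5:**
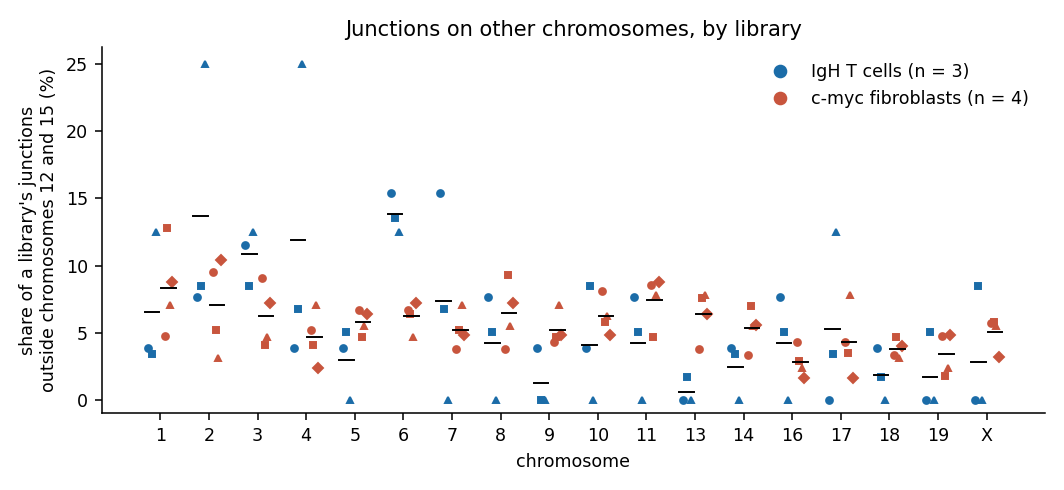
Share of a library's junctions outside chromosomes 12 and 15 (vertical axis, percent) on each of 18 chromosomes, with 1 point per library and black lines for group means. On chromosome 13 a single T-cell junction stands against 39 of the fibroblasts, and T-cell points scatter widely, since replicate 23 had 8 junctions in all on other chromosomes.

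Most classified joints of both groups had microhomology. Bait and prey shared at least 1 base in 65.3%, 59.7% and 67.1% of classified T-cell joints and in 65.0%, 68.6%, 62.9% and 65.8% of those of the fibroblasts. The means of 64.0% ± 3.86 (SD, n = 3) and 65.6% ± 2.36 (SD, n = 4) overlapped (exact permutation p = 0.571, adjusted p = 0.754). Insertions of up to 20 bases made up 26.6% ± 3.54 (SD, n = 3) in T cells and 16.7% ± 1.14 (SD, n = 4) in fibroblasts, without overlap (exact permutation p = 0.0571, adjusted p = 0.114). When longer insertions were counted as well, the shares were 33.4%, 42.3% and 29.9% in T cells and 31.5%, 33.6%, 33.6% and 34.0% in fibroblasts. The groups then overlapped (35.2% ± 6.42, SD, n = 3, against 33.2% ± 1.14, SD, n = 4; exact permutation p = 0.8), so a difference in insertions held only for the shorter ones. Among joints without longer insertions, blunt joints made up 9.36% ± 0.319 (SD, n = 3) against 17.7% ± 2.01 (SD, n = 4). Of the joints with microhomology only, those sharing 4 or more bases made up 15.6% ± 0.233 (SD, n = 3) in T cells and 23.9% ± 3.36 (SD, n = 4) in fibroblasts, also without overlap of the libraries.

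The lines that could be classified differed between the groups. Classified joints were 86.2% ± 5.10 (SD, n = 3) of T-cell lines and 44.1% ± 2.25 (SD, n = 4) of fibroblast lines. Of 720 T-cell lines left out, 606 had longer insertions, 113 lacked the primer and 1 had a bait part that ran through the first I-SceI site. Of 1630 fibroblast lines left out, 1248 ran through the first site, 314 had longer insertions and 68 lacked the primer. Past the first site the bait end is not unique, since the sites are repeated, and whether joints there are of the same kinds was not tested. The IgH B cells had insertions of up to 20 bases in 27.1% ± 5.65 (SD, n = 3) of joints, and the c-myc B cells in 32.2% ± 2.85 (SD, n = 3). Microhomology was listed in 60.8% ± 4.23 (SD, n = 3) of IgH and 0.0232% ± 0.0402 (SD, n = 3) of c-myc B-cell joints, so the tables of the latter hold almost no overlap of bait and prey.

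Genes joined outside the windows were mostly hit once. Of the T-cell junctions there, 76 carried a gene label, on 69 genes, of which 6 had 2 or more junctions. The fibroblasts had 393 on 339 genes, with 23 hit at least 2 times. On other chromosomes 51.2% ± 26.0 (SD, n = 3) of T-cell and 48.9% ± 7.25 (SD, n = 4) of fibroblast junctions carried a label, with overlap (exact permutation p = 0.857, adjusted p = 0.935).

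In T cells the labels with 2 or more junctions were the switch regions Se, with 3 junctions, and Sg2b, with 2, and the genes Herc3, Ppp2r5c, Scd2 and Tdrd9, with 2 each. Ppp2r5c, a regulatory subunit of protein phosphatase 2A, and Tdrd9 lie on chromosome 12 like the cassette. The pair in Herc3, a ubiquitin ligase gene, came from 2 libraries and lay 36 bp apart, and that in Scd2, a stearoyl-CoA desaturase, came from 1 library and lay 18 bp apart. Switch regions are the repeats in which class switching places its breaks. In all, 6 of 266 T-cell junctions outside the windows carried an antigen receptor label, including 1 in Sg3, against 0 of 849 in fibroblasts. Those labels lie on the cassette chromosome of the T cells.

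In fibroblasts Pvt1 led with 28 junctions outside the windows, in all 4 libraries and over 174.6 kb, on the cassette chromosome. Eefsec followed with 5, of which 4 were the shared junction described above, and Lzic with 3, all of them the shared one, and D030024E09Rik with 3 on chromosome 15. Of the 19 genes with 2 junctions, 9 had them more than 10 kb apart, which were Bai3, Cacnb2, Eya1, Fam134b, Kcnb2, Nkain2, Nrg3, Odz2 and Unc5a. Genes with a pair of junctions within 50 bp in 1 library were Bmp1, Cnot10, Gfra1 and Ttc28. Among the genes labelled in both groups were Camta1, Myo3a, Nek11 and Ric8b, each with 1 junction in T cells.

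The gene lists gave few or no junctions. None of 20 genes known as AID off-targets was labelled in either group, which allows up to 1.13% of junctions outside the windows in T cells and 0.353% in fibroblasts. Of 30 T-cell genes, 0 were hit in T cells and 1 in fibroblasts, Ikzf1, which encodes the lymphoid factor Ikaros. Of 30 fibroblast genes, 0 were hit in T cells, and Col5a1, a collagen gene, and Prrx1, a mesenchymal homeobox gene, had 1 junction each in fibroblasts. Of 19 long genes at fragile sites, Fhit, Lrp1b and Pard3b had 1 each in fibroblasts and none had any in T cells. With 76 labelled T-cell junctions, differences between these lists were not detectable at this depth.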

How the data were processed

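HTGTS libraries were made by adapter PCR from sonicated genomic DNA and read on a MiSeq, per the labels' protocols. The deposited tables give, per the file headers, 1 line per junction with an alignment score from the authors' aligner, the prey's position and strand, read and reference sequences and a gene label. In fibroblasts 11 reads gave 22 lines. The build of the positions is mm9, per the submitters' processing notes. For the aligner, its filters and the handling of duplicates, nothing was given in the sources used here. No score was used for filtering.

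Windows, shares, distances from break ends, bait reach and joint types were computed in Python 3.11.15 (scipy 1.17.1, pandas 2.3.3). Groups were compared over libraries by two-sided exact permutation tests, with Benjamini-Hochberg adjustment over 12 measures, and chromosomes by limma 3.58.1, a step tested on simulated data. Shares of 1 library have 95% Wilson intervals, and limits for 0 come from 3 counts. Both cover counting error only. The I-SceI site was found as the 18-base word that fibroblast bait reads and T-cell prey references share in both orientations. Joints with over 20 inserted bases, and reads without the primer (113 T-cell and 68 fibroblast lines), were not classified. Genes named are those with at least 2 junctions outside the windows, those labelled in both groups and those in the lists. A gene that met this rule is not reported here. The groups, measures and lists were chosen with earlier results of these data known. Distances from each end, windows from each end, leaving out junctions recurring between libraries and counting longer insertions were added after seeing the data.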

Additional observations from a re-analysis of the deposited data

Results flagged for a closer look

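Of 59 fibroblast measures over 4 libraries, 3 had a library whose gap to its nearest neighbour exceeded 0.829 of the range, where chance gives about 1 in 20. Bait parts ended 12 bases into the site in replicate 2 and 13 in the others (ratio 1, in whole bases). Junctions beyond 1 kb at the partner gave a ratio of 0.833, with replicate 2 at 6.22% and the others at 4.82% to 5.05%. Bait parts with a whole site in the bait window gave 0.857, the lowest library being at 34.8%.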

How the results depend on the processing

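Of 160 alternative values for the 12 share and position measures, 145 kept their direction, and none of the 6 measures without overlap changed direction. The 15 that turned all belonged to measures whose groups overlapped. As T cells minus fibroblasts in percentage points, the long-range share moved from −0.31 to 13.9 with 1 junction per position and strand, to 28.7 without the bait window in the denominator and to 4.98 with prey of at most 150 bases. Partner orientation turned to −0.861 with 1 junction per position and strand, the between-breaks share to 2.65 with windows of 5 kb, and the gene-label share to −0.655 with prey of at most 150 bases. With longer insertions counted, microhomology turned to 3.97 and the insertion share fell to 2.02, where the groups overlapped. The causes were not tested. Leaving out 1 library at a time gave −1.44 to 0.599 for the long-range share, −0.601 to 2.23 for partner orientation, −0.437 to 0.0731 for the between-breaks share, −3.09 to 0.620 for microhomology and −10.6 to 15.4 for gene labels. The count of chromosomes called by limma was 0 to 3 without 1 library, at 0 without any 1 fibroblast library and at 3 without T-cell replicate 21, and 1 under a pseudocount of 5 percent and under the remaining alternatives. No paired analysis was possible because the groups compared share no replicate numbers. Depth limits most what was counted off the windows in T cells, where replicate 23 had 8 junctions on other chromosomes.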
